A study of Mus musculus with 7 samples.

Results

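Spiny projection neurons whose nuclei carry the authors' annotation Unknown.MSN made up 87 of the 4524 striatal nuclei in the study and 87 of the 3003 nuclei annotated as spiny projection neurons. They were taken by that label alone, and the other spiny classes were D1.MSN (1809 nuclei), D2.MSN (941 nuclei) and Eccentric MSNs (166 nuclei). The sources used here do not say how the authors assigned types to nuclei. Every gene of these nuclei therefore counts as used by the label, and differences in gene levels from the other classes are given as descriptions without a test. Only the total of UMIs per nucleus was tested. That total sums the same genes, so the label may have read it too. The nuclei came from the striatum of 4 male HttQ175/+ mice and 3 male WT mice of the C57BL6/J strain, with 1 single-nucleus RNA-seq library per mouse. HttQ175/+ mice carry 1 copy of a knock-in huntingtin allele with an expanded CAG repeat in every cell, and the repeat length was not analysed here. HttQ175/+ replicate 1 was 15 months old, and HttQ175/+ replicates 2 to 4 and all WT mice were 14 months old. RNA was counted as unique molecular identifiers (UMIs), each tag standing for 1 captured RNA molecule.

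Spiny projection neurons are the principal GABAergic neurons of the striatum. Those of the direct pathway carry the D1 dopamine receptor and make substance P and dynorphin, and those of the indirect pathway carry the D2 receptor and an adenosine receptor, Adora2a, and make enkephalin. Both share a set of identity genes, among them the phosphodiesterase Pde10a, the phosphatase regulator Ppp1r1b (DARPP-32) and the transcription factor Meis2. In Huntington's disease these neurons are the most affected cells of the striatum, and loss of their identity RNAs is a well-known feature of mouse models.

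The 87 nuclei were unevenly spread over the mice. HttQ175/+ replicates 1 to 4 gave 11, 43, 7 and 15 of them, against 6, 3 and 2 from WT replicates 1 to 3. HttQ175/+ replicate 2 alone gave 49.4% of the 87. As a share of the spiny nuclei of each mouse they were 2.03%, 4.99%, 2.40% and 3.67% in HttQ175/+ replicates 1 to 4, against 2.16%, 1.44% and 0.485% in WT replicates 1 to 3. The means were 3.27 ± 1.34% (SD, n = 4) in HttQ175/+ and 1.36 ± 0.84% (SD, n = 3) in WT. The groups overlapped, since WT replicate 1 lay above HttQ175/+ replicate 1. No test was made of this share, because spiny identity genes differ by genotype and the label may have read them.

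Unknown.MSN nuclei held fewer UMIs than the D1 and D2 nuclei beside them. The median per nucleus was 1990, 1369, 2074 and 1685 UMIs in HttQ175/+ replicates 1 to 4 and 1633, 1470.0 and 2138.5 in WT replicates 1 to 3. D1 nuclei of the same mice had medians of 2332, 1647, 2636 and 2052 UMIs in HttQ175/+ and 2776, 2816 and 2716 in WT. In the 3 mice with at least 10 Unknown.MSN nuclei the log2 difference of the medians was -0.26 ± 0.028 (SD) against D1 nuclei. An exact two-sided sign-flip test over those 3 mice gave p = 0.25, the smallest it can give (adjusted p = 0.375 over 3 comparisons). In the same 3 mice the difference was -0.13 ± 0.039 (SD) against D2 nuclei (exact sign-flip test, p = 0.25, adjusted p = 0.375). It was -0.011 ± 0.078 (SD) against Eccentric nuclei, lower in 2 of 3 mice (exact sign-flip test, p = 0.75, adjusted p = 0.75). Over all 7 mice, an alternative added after the data were seen, the difference was -0.45 against D1 nuclei and -0.32 against D2 nuclei, lower in 7 of 7 mice for both (exact sign-flip test, adjusted p = 0.0234 for both over 3 comparisons). Against Eccentric nuclei the difference over all 7 mice was -0.19, lower in 6 of 7 mice (exact sign-flip test, adjusted p = 0.0469). The mice added to the first 3 gave only 2 to 7 Unknown.MSN nuclei each. A nucleus with fewer UMIs can show fewer marker UMIs, and whether the label depended on depth was not tested. At an equal depth of 1000 UMIs drawn per nucleus the median number of genes was 675 in Unknown.MSN, 674 in D1, 671 in D2 and 683.5 in Eccentric nuclei. Scrublet, a caller of nuclei that look like mixtures, marked 0 of the 87 as doublets and 1.326% of all nuclei.

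On the authors' t-SNE map the 87 nuclei lay among the D1 and D2 nuclei and formed no group of their own. Of the 20 nearest neighbours of each, 4.60% were Unknown.MSN, 59.4% D1, 34.3% D2 and 0.517% Eccentric nuclei. For comparison, Unknown.MSN nuclei made up 2.75% of the neighbours of D1 nuclei, 3.13% of those of D2 nuclei and 1.92% of all nuclei. Whether they lay nearer to each other than an even scatter would place them was not tested. D1 and D2 nuclei were themselves mixed on this map, with 64.2% D1 and 32.1% D2 among the neighbours of D1 nuclei. The neighbours of D2 nuclei were 60.8% D1 and 35.0% D2. Eccentric nuclei stood apart, with 88.6% of their neighbours Eccentric. The most common neighbour was D1 for 72 of the 87 nuclei, D2 for 13 and microglia for 2. D1 is the largest spiny class, with 1809 of the 3003 nuclei, so this does not mark likeness to D1.

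**Figure D1:**
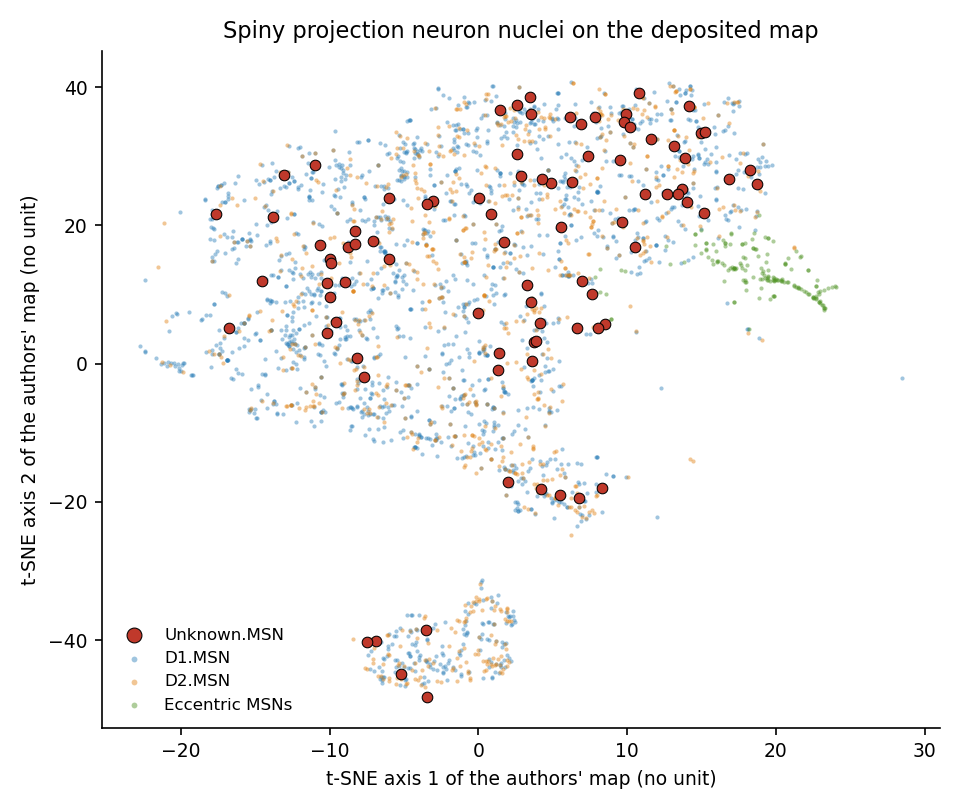
Position of the 3003 spiny projection neuron nuclei on the authors' t-SNE map (both axes without unit), with the 87 Unknown.MSN nuclei as large outlined points and D1.MSN, D2.MSN and Eccentric MSNs nuclei as small points. The Unknown.MSN nuclei are scattered through the mixed D1 and D2 nuclei, which make up 59.4% and 34.3% of their nearest neighbours, and stay apart from the Eccentric arm.

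The 4 genes fixed as markers of the class were looked at first. Drd1, the D1 dopamine receptor (mm10 chromosome 13, 54051183 to 54055705, minus strand), had 1 UMI in the 87 nuclei together, in HttQ175/+ replicate 2, and 0 in the other 6 mice. Drd2, the D2 receptor (chromosome 9, 49340627 to 49408177, plus strand), had 1 UMI, in HttQ175/+ replicate 1, and 0 in the other 6 mice. D1 nuclei held Drd1 at 318, 362, 232 and 266 counts per 1000000 UMIs (CPM) in HttQ175/+ replicates 1 to 4, and at 374, 499 and 533 CPM in WT replicates 1 to 3. Drd2 was sparse even in D2 nuclei, at 10.1 to 31.4 CPM in HttQ175/+ and 33.9 to 55.2 CPM in WT, so that its near absence carries little information at this depth. The 143970 UMIs of the 87 nuclei were next set against the UMIs expected if each mouse's Unknown.MSN nuclei held a gene at the rate of another class in that mouse, with exact 95% Poisson intervals that cover counting error only. For Drd1 the D1 rate gave 48.4 UMIs, the D2 rate 4.89 and the oligodendrocyte rate 17.9.

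Meis2 and Ppp1r1b were both detected, but Meis2 was not clearly above the oligodendrocyte level. Meis2 (chromosome 2, 115863064 to 116065839, minus strand) stood at 659, 566, 505 and 722 CPM in Unknown.MSN nuclei of HttQ175/+ replicates 1 to 4, and at 1369, 527 and 935 CPM in those of WT replicates 1 to 3. The 7 values overlap between the genotypes. In all, 97 UMIs were seen against 124 expected at the D1 rate (ratio 0.785, interval 0.636 to 0.957), 136 at the D2 rate and 78.9 at the oligodendrocyte rate. Oligodendrocyte nuclei held Meis2 at 614, 415, 587 and 674 CPM in HttQ175/+ replicates 1 to 4. They held it at 728, 618 and 594 CPM in WT replicates 1 to 3, so that the values of the 2 types overlapped. Ppp1r1b (chromosome 11, 98348404 to 98357796, plus strand) stood at 176, 199.7, 433 and 152 CPM in HttQ175/+ replicates and at 639, 0 and 0 CPM in WT replicates, where 3 UMIs would have been 274 to 701 CPM. Its 33 UMIs compared with 39.9 at the D1 rate (ratio 0.827, interval 0.57 to 1.16), 42.3 at the D2 rate and 16.2 at the oligodendrocyte rate. Oligodendrocytes should lack these neuronal RNAs, and their rate is given here and for some of the genes that follow as the level in such a type. Whether it measures the free RNA in the droplets of these 87 nuclei was not tested.

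The wider set of 30 spiny identity genes was at the level of D1 nuclei. All 30 were detected, with 1922 UMIs against 1939 expected at the D1 rate (ratio 0.991, interval 0.947 to 1.04), and 14 lay above and 16 below that rate. The ratio was 0.877 (0.839 to 0.917) to the D2 rate, 1.39 (1.32 to 1.45) to the Eccentric rate and 1.66 (1.59 to 1.74) to the oligodendrocyte rate. Across all 8174 genes with at least 3 UMIs expected at the D1 rate the median ratio was 0.983, with 3908 above and 4266 below. The 4 identity genes with most UMIs were Pde10a, the striatal cyclic nucleotide phosphodiesterase (351 seen, 294 expected at the D1 rate and 342 at the D2 rate), Arpp21, a regulator of calmodulin signalling (209 seen, 231 and 234 expected), Phactr1, an actin and phosphatase regulator (154 seen, 142 and 172 expected), and Rgs9, which shortens G protein signalling (145 seen, 168 expected at the D1 rate). The list was also counted nucleus by nucleus. At 1000 UMIs per nucleus the list took a median of 12 UMIs (quartiles 8 and 16) in Unknown.MSN nuclei, against 13 in D1, 16 in D2 and 9 in Eccentric nuclei, and 83 of the 87 Unknown.MSN nuclei held 5 or more. No non-neuronal type was counted in this way, and the oligodendrocyte rate gave 1157 UMIs of the list over the 87 nuclei. A count of 5 or more therefore does not show that a given nucleus expresses these genes.

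Direct-pathway marker genes were nearly absent. The list of 14 had 44 UMIs, a ratio of 0.149 (0.108 to 0.2) to the D1 rate and 0.604 (0.439 to 0.81) to the D2 rate, and all 11 members with at least 3 UMIs expected at the D1 rate lay below it. Tac1, the substance P precursor (chromosome 6, 7554879 to 7565834), had 0 UMIs in all 7 mice, where the D1 rate gave 42.2, the D2 rate 4.91 and the oligodendrocyte rate 19.4. The transcription factors of this lineage were alike: Ebf1 had 1 UMI against 41.9 at the D1 rate, Isl1 0 against 12.3, and Foxp2, which spiny neurons of the direct pathway hold at a high level, 0 against 49. Pdyn, the dynorphin precursor, had 2 UMIs against 8.67. Most of the list's UMIs came from Reln, an extracellular matrix glycoprotein (22 seen, 34.7 expected at the D1 rate and 18.6 at the D2 rate), and Rxrg, a retinoid receptor (12 seen, 14.5 and 15.1 expected).

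Indirect-pathway markers were also nearly absent. The 13 measured members of 14 had 26 UMIs, a ratio of 0.115 (0.0751 to 0.168) to the D2 rate and 0.715 (0.467 to 1.05) to the D1 rate. Of the 12 members with at least 3 UMIs expected at the D2 rate, 10 lay below it and 2 above. Penk, the enkephalin precursor (chromosome 4, 4133531 to 4138819), had 0 UMIs in all 7 mice, where the D2 rate gave 82.4, the D1 rate 5.68 and the oligodendrocyte rate 18.6. D2 nuclei held Penk at 364 to 445 CPM in HttQ175/+ and 1161 to 1801 CPM in WT mice. Adora2a, the adenosine receptor, had 0 UMIs against 42.8 at the D2 rate and 10.3 at the oligodendrocyte rate. The kainate receptor subunit gene Grik3 had 0 against 16.7, the calcium-binding protein gene Necab1 0 against 18.5, the orphan receptor gene Gpr6 3 against 18.2 and the transcription factor gene Sp9 1 against 12.8. Adk, adenosine kinase, was the list's member with most UMIs, 8 seen against 3.72 at the D2 rate and 1.49 at the D1 rate.

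Several of these counts were below the oligodendrocyte rate as well. Penk, Tac1, Foxp2, Drd1 and Adora2a had 0, 0, 0, 1 and 0 UMIs, in that order, where the oligodendrocyte rate gave 18.6, 19.4, 26.6, 17.9 and 10.3. For each of these 5 genes the upper bound of the interval was under 0.36 of the oligodendrocyte rate. Whether the label was given by the absence of such UMIs was not tested, and the label and its RNA content cannot be told apart from these files.

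**Figure D2:**
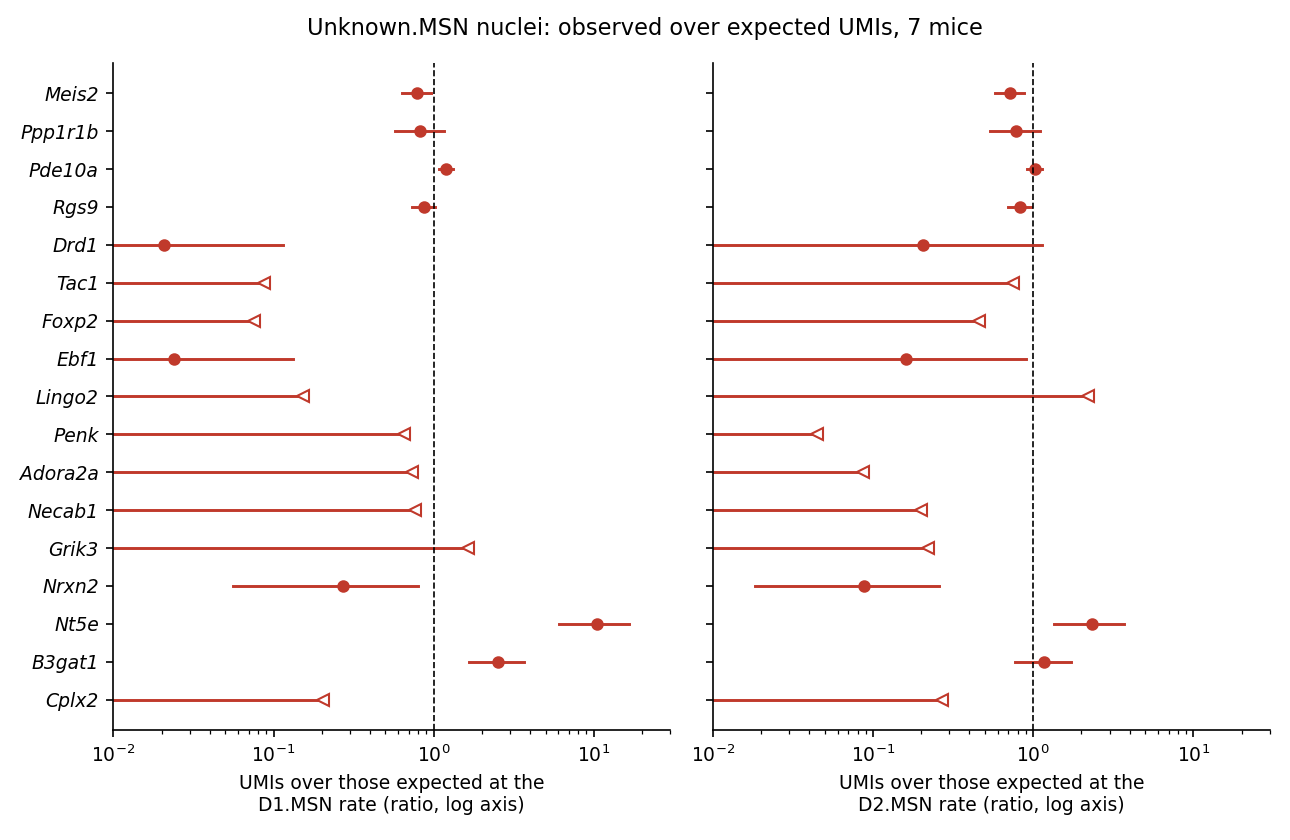
UMIs observed in the 87 Unknown.MSN nuclei of 7 mice over those expected at the D1.MSN rate (left) and at the D2.MSN rate (right) of the same mice, on a log axis, with exact 95% Poisson intervals. Open arrowheads mark the upper bound of genes with 0 UMIs, intervals are drawn from 0.01, and the dashed line is a ratio of 1. Identity genes (Meis2 to Rgs9) lie near 1 on both sides, D1 and D2 genes lie far below their own class, and Nt5e and B3gat1 do not.

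To set these counts beside all genes that separate the D1 and D2 classes, genes were grouped by their D1 to D2 difference in D1 and D2 nuclei alone, keeping those with the same direction in all 7 mice and at least 5 UMIs expected at the higher rate; the grouping was chosen after the data were seen. The 12 genes higher in D1 by at least 1.5 on the log2 scale had 15 UMIs, against 337 at the D1 rate and 53.5 at the D2 rate, and 10 of the 12 lay below both rates. The 11 genes higher in D2 by as much had 48 UMIs, against 264 at the D2 rate and 41.3 at the D1 rate, and 6 of the 11 lay below both. Most of these genes are the markers already described: 9 of the 12 and 8 of the 11 are on the marker lists, and they account for 288 of the 337 and 207 of the 264 UMIs expected. The 3 D1 genes on no such list, Asic4, Gnb4 and Lingo2, had 8 UMIs, against 48.8 at the D1 rate and 7.70 at the D2 rate; all 8 were from Gnb4. The 3 D2 genes on no such list, Nt5e, Nrxn2 and 1 gene with a provisional name, had 39 UMIs, against 56.2 at the D2 rate and 15.2 at the D1 rate. Only their sum lay between the classes: gene by gene, 2 of the 3 lay above both rates and 1 below both. The low D2 total thus rests on the listed markers. The low D1 total rests mostly on them, though the 3 other D1 genes were also low in sum (ratio to the D1 rate 0.164, interval 0.0708 to 0.323). The grouping is no separate evidence. Each mouse showed a low total for the first set, with 3, 9, 0 and 0 UMIs seen against 52.7, 146, 29.9 and 55.3 at the D1 rate in HttQ175/+ replicates 1 to 4, and 0, 1 and 2 against 26.7, 14.4 and 11.8 in WT replicates 1 to 3. For the second set, 11, 16, 1 and 10 UMIs stood against 36.8, 96.9, 21.8 and 44.9 at the D2 rate in HttQ175/+ replicates, and 8, 2 and 0 against 33.8, 15.1 and 14.4 in WT replicates. As deposited, 97 spiny nuclei had no UMI of any of these 23 genes, and 55 of them were Unknown.MSN (56.7%). Unknown.MSN nuclei held fewer UMIs, so nuclei were also counted after thinning each to 1000 UMIs. None of the 23 was then seen in 68 Unknown.MSN, 156 D1, 122 D2 and 9 Eccentric nuclei (78.2%, 8.62%, 13.0% and 5.42% of each class).

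In sum, genes with a weaker subtype bias lay between the D1 and D2 rates. The 106 genes higher in D1 by 0.25 to 1 on the log2 scale had 1509 UMIs, between the 1801 of the D1 rate and the 1337 of the D2 rate, which is 62.9% (46.1 to 79.1) of the way from D1 to D2. The 113 genes higher in D2 by as much had 2116 UMIs, between 1785 at the D1 rate and 2441 at the D2 rate, or 50.4% (36.8 to 64.5) of the way. Gene by gene they were spread: 43 of the 106 lay between both rates, 32 below both and 31 above both, and 43 of the 113 lay between, 34 below both and 36 above both. At a difference of 1 to 1.5, the 8 D1 genes lay 85.3% (55.5 to 109.7) and the 4 D2 genes 22.0% (-5.21 to 55.6) of the way from D1 to D2. By genotype the first set lay 62.1% of the way in HttQ175/+ and 66.8% in WT mice, and the second 53.0% in HttQ175/+ and 39.0% in WT mice. The sums over nuclei cannot tell a mixture of D1-biased and D2-biased nuclei from nuclei that are each between them. These genes were also picked by their difference in the same D1 and D2 nuclei that set both rates. Genes picked through counting error alone would lie between the rates in sum too, and how many are of this kind was not tested.

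**Figure D3:**
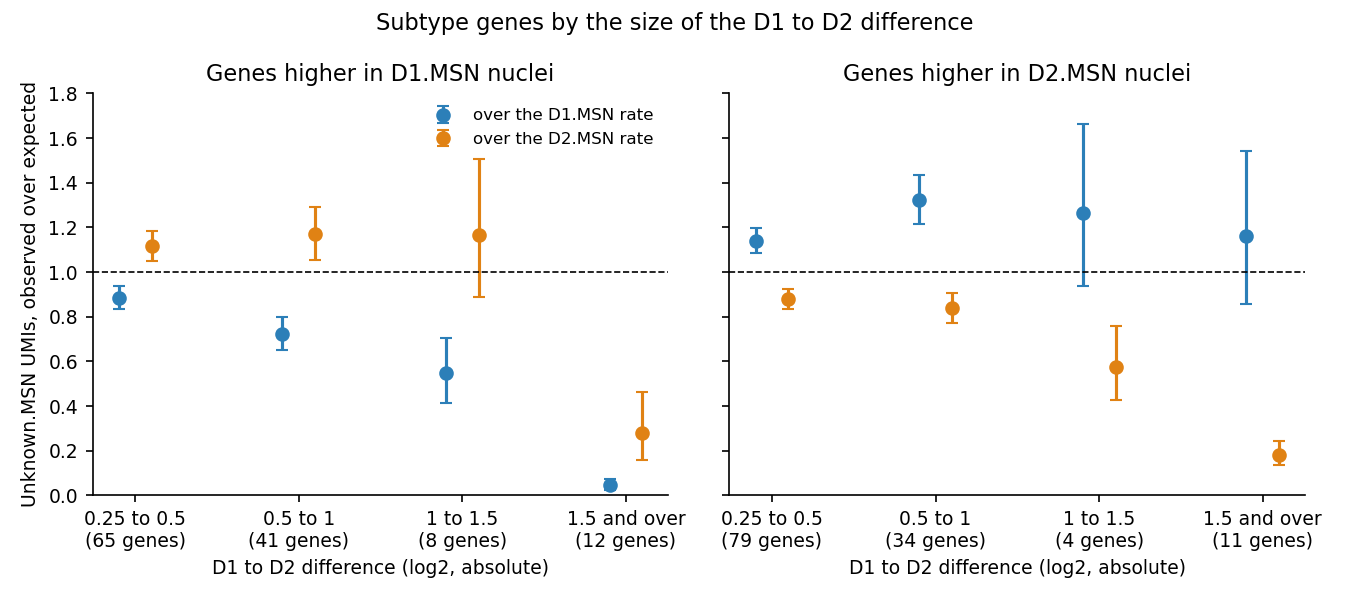
UMIs observed in Unknown.MSN nuclei over those expected at the D1.MSN rate (blue) and at the D2.MSN rate (orange), for genes higher in D1 (left) and in D2 nuclei (right), by the size of the D1 to D2 difference on the log2 scale; bars are exact 95% Poisson intervals. In the 2 bins up to a difference of 1 the values lie on both sides of 1, and at 1.5 and over, where most genes are listed markers, the ratio is 0.0445 to the D1 rate for D1 genes and 0.182 to the D2 rate for D2 genes.

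Some genes of the indirect pathway were not low. Nt5e, the ecto-enzyme CD73 that makes adenosine from AMP (chromosome 9, 88327197 to 88372092, plus strand), had 17 UMIs in 14 nuclei, against 7.33 at the D2 rate (ratio 2.32, interval 1.35 to 3.71), 1.63 at the D1 rate and 4.09 at the oligodendrocyte rate. By mouse it stood at 176, 99.9, 0 and 189.9 CPM in Unknown.MSN nuclei of HttQ175/+ replicates 1 to 4 and at 183, 0 and 0 CPM in WT replicates 1 to 3. D1 nuclei of these mice held 10.1 to 13.2 CPM in HttQ175/+ and 4.35 to 8.96 CPM in WT mice. In 3 of the 7 mice no Nt5e UMI was seen, and these gave 7, 3 and 2 Unknown.MSN nuclei. B3gat1, which makes the HNK-1 sugar epitope, had 27 UMIs in 21 nuclei, against 23 at the D2 rate and 10.7 at the D1 rate (ratio to D1 2.53, interval 1.67 to 3.69).

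Single nuclei showed the same absence. With each nucleus thinned to 1000 UMIs, 86 of 87 Unknown.MSN nuclei (98.9%, exact binomial interval 93.8 to 99.97) held none of Drd1, Tac1, Pdyn, Drd2, Penk and Adora2a. The share was 50.7% in D1, 43.4% in D2 and 47.0% in Eccentric nuclei. It was 73.3% in oligodendrocytes and 81.0% in astrocytes, types that should lack all 6 RNAs. Without thinning it was 96.6% in Unknown.MSN nuclei at a median of 1523 UMIs, against 35.8% in D1 nuclei at 2175, 29.6% in D2 nuclei at 2036, 58.3% in oligodendrocytes and 69.3% in astrocytes, whose median depths were 2158.5 and 1664 UMIs. With the whole lists of 14 and 13 markers, 65.5% of thinned Unknown.MSN nuclei held none, against 12.7% of D1, 14.3% of D2 and 42.5% of oligodendrocyte nuclei. Absence of the 6 RNAs was common in other spiny nuclei too: of 1078 spiny nuclei with none as deposited, 84 were Unknown.MSN (7.79%).

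**Figure D4:**
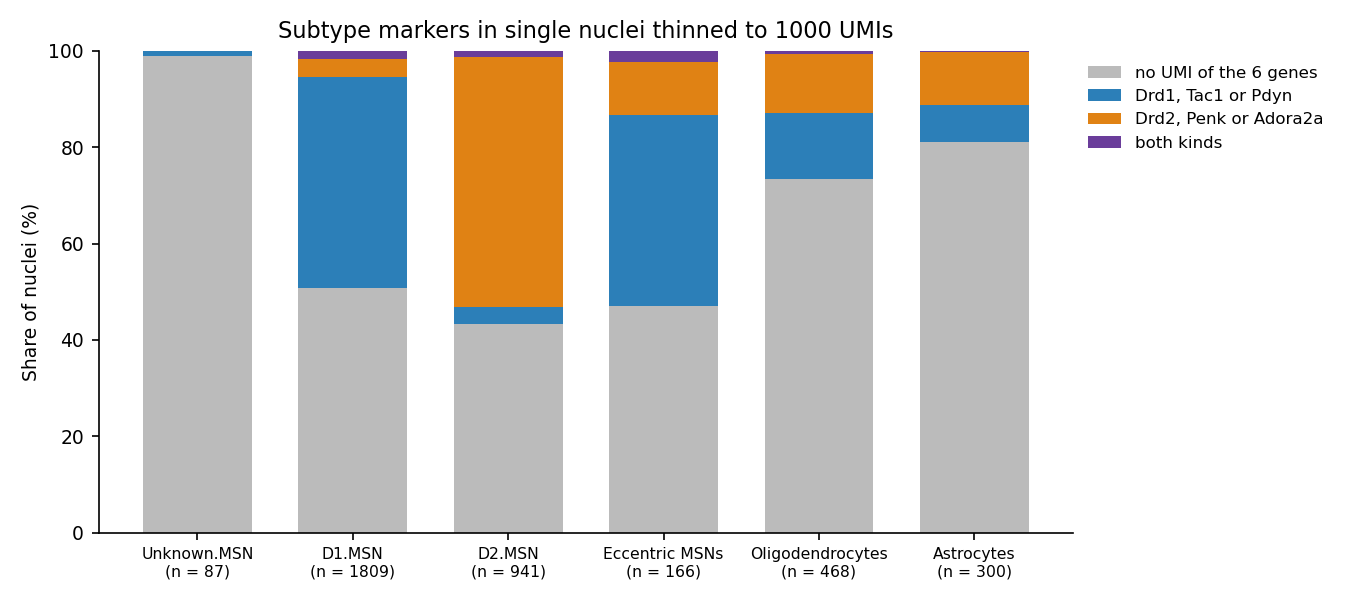
Share of nuclei of each type, thinned to 1000 UMIs, with UMIs of neither marker set, of the direct-pathway set (Drd1, Tac1, Pdyn), of the indirect-pathway set (Drd2, Penk, Adora2a) or of both. The Unknown.MSN bar is 98.9% without any of the 6, above oligodendrocytes (73.3%) and astrocytes (81.0%).

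Matrix markers were at the D1 level, and markers of eccentric neurons were far below the Eccentric level, as they are in D1 and D2 nuclei. Markers of eccentric spiny neurons had 12 UMIs, a ratio of 0.0741 (0.0383 to 0.129) to the Eccentric rate. The ratio was 0.65 (0.336 to 1.14) to the D1 rate and 0.892 (0.461 to 1.56) to the D2 rate. Among them Tshz1 had 4 UMIs, Casz1 3 and Col11a1 2. Matrix markers had 106 UMIs (D1 ratio 1.11, 0.91 to 1.34), led by the ephrin receptor gene Epha4 with 39 and Gpr155 with 25. Patch and exopatch markers had 39 UMIs, a ratio of 0.633 (0.45 to 0.865) to the D1 rate and 0.79 (0.561 to 1.08) to the D2 rate, with 25 of them from Sepw1. Interneuron markers had 30 UMIs (ratio 0.941 to the D1 rate), 20 of them from Gad1, the GABA-synthesising enzyme, which spiny neurons also express. Astrocyte markers had 72 UMIs (ratio 0.952 to the D1 rate), 45 of them from Slc4a4, and oligodendrocyte markers 21 (ratio 0.894). Microglial markers had 18 UMIs (ratio 2.26, 1.34 to 3.57), of which 1 nucleus of HttQ175/+ replicate 2 gave 55.6%, and endothelial and mural markers 23 (ratio 3.32, 2.1 to 4.98), of which 1 WT nucleus gave 78.3%. Ependymal markers were at 0 UMIs.

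Neuronal function lists were close to the D1 rate. Glutamate receptor and postsynaptic genes had 1887 UMIs (ratio 1.00, 0.957 to 1.05), led by Gria2 with 634, Grin2b with 188 and Grm5 with 183. GABA-A receptor genes had a ratio of 0.996, potassium channels 1.01, sodium and calcium channels 0.979, immediate early genes 0.964 and nuclear-encoded oxidative phosphorylation genes 1.02. Neurexins, neuroligins and adhesion genes had a ratio of 0.824 (0.761 to 0.89). To the oligodendrocyte rate, the ratios were 1.54 for glutamate receptor, 1.42 for GABA-A receptor and 1.51 for potassium channel genes. They were 1.59 for sodium and calcium channel genes and 1.20 for neurexins, neuroligins and adhesion genes. Immediate early genes (1.14, 0.964 to 1.33) and nuclear-encoded oxidative phosphorylation genes (0.933, 0.824 to 1.05) were not clearly apart from the oligodendrocyte rate. Heat shock and stress genes had 164 UMIs, a ratio of 0.688 (0.586 to 0.801) to the D1 rate and 0.68 (0.58 to 0.792) to the D2 rate, but 0.938 (0.8 to 1.09) to the Eccentric rate; Hspa8, a constitutive chaperone, had 18 UMIs against 39.5 at the D1 rate and Hsp90aa1 18 against 36.8, while Hsph1 had 20 against 13.9. Mitochondrially encoded genes took 131.7 to 5919 CPM over the 4 HttQ175/+ mice and 0 to 468 CPM over the 3 WT mice, a wide spread within the class. Of 3632 genes with at least 10 UMIs expected at the higher of the D1 and D2 rates, 3 had an interval wholly under 0.5 of the lower of those rates (Gucy1a3, Foxp2 and Cplx2) and 0 had one over 1.5 of the highest of the D1, D2 and Eccentric rates. Cplx2, a regulator of synaptic vesicle fusion, had 0 UMIs in all 7 mice against 18 at the D1 rate and 13.8 at the D2 rate.

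Gene by gene within mice, on the log2(CPM + pseudocount) scale, the 3 HttQ175/+ mice with at least 10 nuclei were used. The pseudocount was 75.956 CPM, worth 2 UMIs, which understates differences of low genes. Against D1 nuclei, 56 of 10979 genes (0.51%) were at least 2-fold lower in the same direction in the 3 mice, and 1 (0.00911%) was higher, Nt5e (1.22 ± 0.24, SD, n = 3). Among the lower genes with the largest differences were Foxp2 (-2.64 ± 0.094), Drd1 (-2.40 ± 0.11), Ebf1 (-2.40 ± 0.056) and Tac1 (-2.24 ± 0.15), followed by Lingo2, Cplx2, Hsp90ab1, Dbn1 and Sfxn1. Against D2 nuclei, 50 of 9269 genes (0.539%) were lower and 0 higher, led by Penk (-2.88 ± 0.056), Adora2a (-2.33 ± 0.087) and the soluble guanylate cyclase subunit gene Gucy1a3 (-2.26 ± 0.33), followed by Nrxn2, Hsp90ab1, mt-Co1, Necab1, Tmem158, Hspa8 and Grik3. Against Eccentric nuclei, 74 of 4974 genes (1.49%) were lower, among them Foxp2, Col11a1, Atp2b4, Tac1, Ntng1, Drd1, Otof, Sema5b and Celf4, and 6 (0.121%) were higher, among them Rasgrp2, a calcium-activated guanine nucleotide exchange factor (1.69 ± 1.21), and Actn1 (1.28 ± 0.33). The named genes spread unequally over the mice: Hsp90ab1 differed from D1 by -1.51 ± 1.35, mt-Co1 from D2 by -1.56 ± 1.51 and Celf4 from Eccentric nuclei by -1.65 ± 1.53. Aplp1, Asxl2, Cplx2, Eprs and Nedd4, and 1 gene with a provisional name, were lower than in all 3 classes. The number of genes lower than in D1 nuclei was 332 with a pseudocount worth 1 UMI and 7 with one worth 5 UMIs, so that the counts depend on the pseudocount.

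Between the genotypes, Pde10a and Rgs9 were lower in the Unknown.MSN nuclei of every HttQ175/+ mouse than in those of every WT mouse. These are descriptions without a test, because the label may have read genes that differ by genotype and the genes were chosen after their values were seen. Among 2182 genes with at least 15 UMIs in these nuclei, 3.35% had all HttQ175/+ mice below all WT mice and 8.2% had them above. No WT mouse gave 10 such nuclei, so the planned model across genes was not fitted. A limma fit over all 7 mice was tried and set aside, because it called unchanged genes in simulated data. Values are given by mouse and as pooled UMIs. Pde10a (chromosome 17, 8525372 to 8986648, plus strand) stood at 2590.3, 1964, 1516 and 1823 CPM in HttQ175/+ replicates 1 to 4 (59, 118, 21 and 48 UMIs), against 5019, 4391 and 5845 CPM in WT replicates 1 to 3 (55, 25 and 25 UMIs). The groups did not overlap. The pooled ratio of HttQ175/+ to WT was 0.399 (exact interval 0.316 to 0.506), beside 0.42 in D1 and 0.448 in D2 nuclei of the same mice. Rgs9 had 834, 732, 577 and 798 CPM in HttQ175/+ and 2555, 2108 and 3039.5 CPM in WT mice, a pooled ratio of 0.295 (0.208 to 0.422) beside 0.429 in D1 and 0.465 in D2 nuclei. Its groups did not overlap either. Of 22 single genes looked at, 8 did not overlap between the genotypes. The other 6 were Ptpn5, a striatal tyrosine phosphatase (pooled ratio 0.386), Cnr1, the cannabinoid receptor (0.357), and Malat1 (0.771), all lower, and the transcription factor gene Onecut2 (3.09) and the non-coding RNAs Meg3 (1.32) and Kcnq1ot1 (2.16), all higher in HttQ175/+ mice.

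Arpp21, Phactr1, Meis2 and Ppp1r1b overlapped between the genotypes in Unknown.MSN nuclei. Arpp21 averaged 1545 ± 349 CPM in HttQ175/+ (SD, n = 4) and 1934 ± 591 CPM in WT mice (SD, n = 3). Phactr1 averaged 1030.3 ± 223 CPM in HttQ175/+ and 1108 ± 207 CPM in WT mice, where D1 nuclei of the same mice had a pooled ratio of 0.513. Meis2 had a pooled ratio of 0.58 (0.357 to 0.98) and Ppp1r1b one of 0.632 (0.267 to 1.72). Whether the genotype difference of these genes differs between Unknown.MSN and D1 nuclei was not tested.

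**Figure D5:**
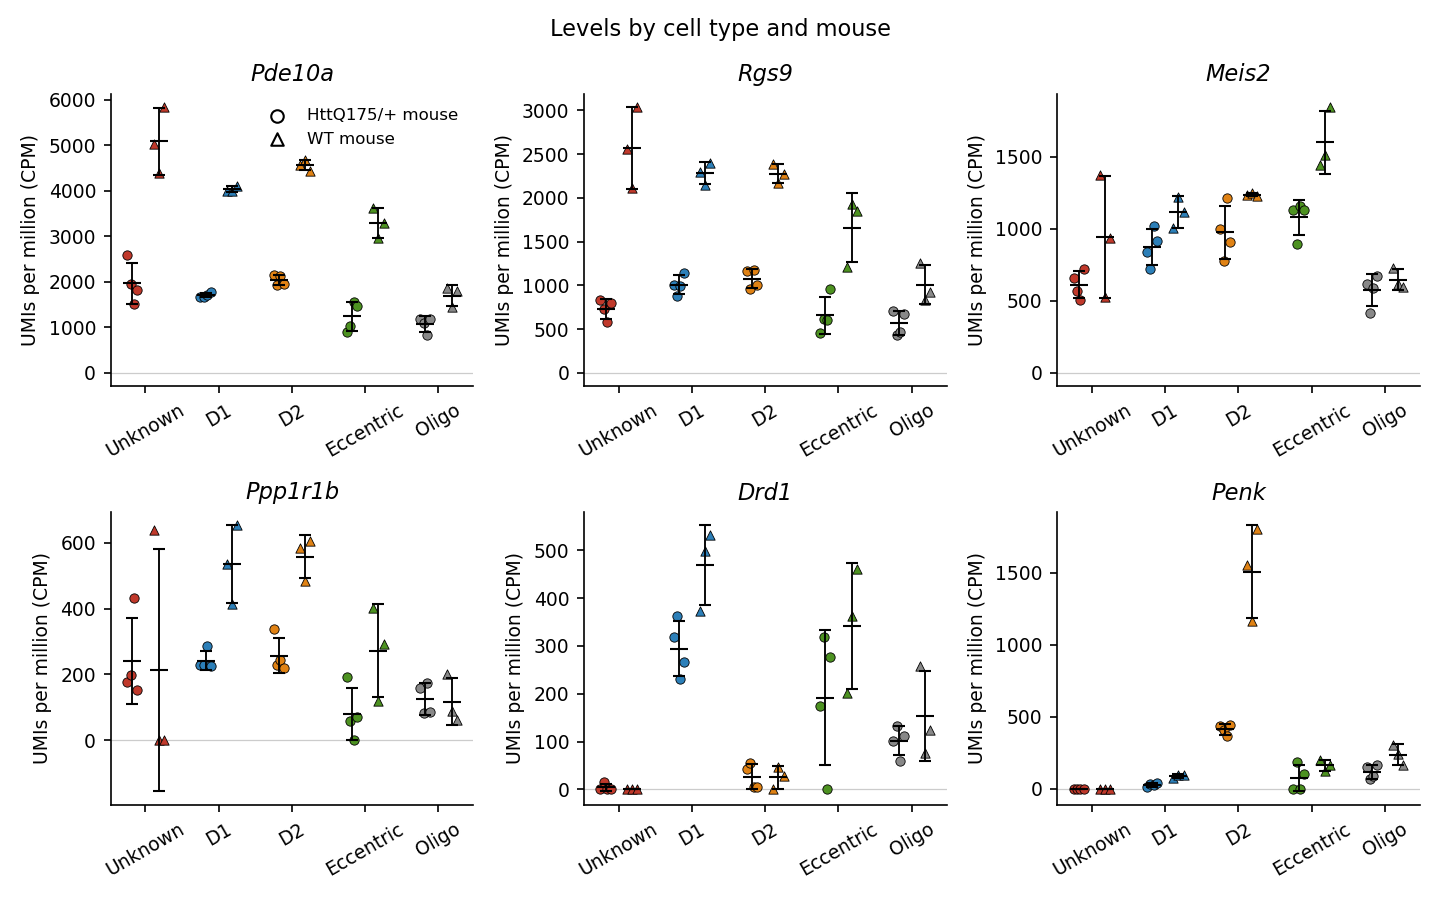
CPM of 6 genes by cell type, with circles for the 4 HttQ175/+ mice, triangles for the 3 WT mice, and the mean with SD as bars. In Unknown.MSN nuclei Pde10a lies near the D1 and D2 levels of the same genotype, and Drd1 and Penk lie at or near 0. Rgs9 lies near those levels in WT mice and below all of them in HttQ175/+ mice.

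As a list, the 30 identity genes summed to 12303 ± 757 CPM in Unknown.MSN nuclei of HttQ175/+ mice (SD, n = 4) and 21494 ± 3744 CPM in those of WT mice (SD, n = 3), without overlap; the pooled ratio was 0.561 (0.505 to 0.625), beside 0.52 in D1 and 0.537 in D2 nuclei. The 21 genes named in earlier results of these data as higher in HttQ175/+ spiny neurons had 295 UMIs in HttQ175/+ and 11 in WT Unknown.MSN nuclei, a pooled ratio of 4.56 (2.51 to 9.24). Onecut2, a neuronal transcription factor, gave 109 of the UMIs in HttQ175/+ and 6 of those in WT nuclei. The 34 genes named as lower had a pooled ratio of 0.498 (0.429 to 0.58). Both lists were chosen from these same mice, so their direction here is not independent evidence. Glutamate receptor genes differed less, with a pooled ratio of 0.968 (0.852 to 1.1). Because the 11 WT nuclei hold 20929 UMIs, against 123041 in the 76 HttQ175/+ nuclei, values of single WT mice rest on 4277 to 10958 UMIs.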

How the data were processed

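Nuclei of 4 HttQ175/+ and 3 WT mice were made into 1 library per mouse with a 10x Chromium 3' kit (version 3), per the labels' protocols. Cell Ranger 3.0.2, Seurat and mm10 are named in the submitters' processing notes; the sources used here give no nucleus filters, type calling or use of strand. The authors deposited natural log values: UMIs were scaled to 10000 per nucleus and 1 was added before the log. Undoing the scale gave whole UMIs, since 100% of 5824756 values above 0 were whole within 0.02. The other deposited table used, with the authors' types, libraries and t-SNE scores (map positions without a unit, as the authors deposited them), named the genotype of the labels in all 4524 nuclei; a table smoothed across nuclei was not used. Nuclei held 1128 to 5632 UMIs, the 87 held 1131 to 2828, and 3 barcodes occurred in 2 libraries (6 nuclei, 1 of the 87). Depth limits precision: 1 UMI of the 87 nuclei is 6.95 CPM.

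UMIs were summed per mouse and type. Expected UMIs multiplied a type's share of UMIs in a mouse by that mouse's Unknown.MSN UMIs, summed over mice. Within-mouse differences used sums scaled by TMM, genes with at least 15 UMIs in all, mice with at least 10 nuclei and a 2-fold threshold with 1 direction in every mouse. Named genes were the 4 class markers, the 10 largest differences per direction among genes at 50 CPM or more, and up to 4 members of each list by UMIs; 1 gene that this rule names is not reported here, and other genes were chosen after their values were seen. The planned limma model of genotype was not run, because it needed at least 2 mice per genotype with 10 nuclei; the design then called for no test. A limma fit over all 7 mice was tried and not kept, since it called unchanged genes in simulated data, and exact permutation tests of 22 single genes, added after their values were seen, are not used in the report because the label may have read these genes (0 passed after adjustment over the 22; the smallest adjusted p was 0.0898). Sums and ratios were tested on simulated data. Python 3.11.15, numpy 2.4.6, scipy 1.17.1 and scanpy 1.11.5 were used. Gene positions are GENCODE vM21. The members and gene lists were chosen with earlier results of these data known. Nothing in the labels says that mice share litters or days, and p-values measure the spread between these mice.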

Additional observations from a re-analysis of the deposited data

Results flagged for a closer look

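Dixon's test at the 95% level was applied to 26 sets of 4 HttQ175/+ values. For normally distributed values chance alone passes it about 1 time in 20, a rate that need not hold for sparse counts. In Unknown.MSN nuclei, 4 genes were each set apart by 1 mouse. Ppp1r1b stood at 433 CPM in HttQ175/+ replicate 3, against 176, 199.7 and 152 CPM in the other HttQ175/+ replicates, and the value rests on 6 UMIs in 7 nuclei. Adcy5, the striatal adenylyl cyclase, stood at 456 CPM in HttQ175/+ replicate 4, and its lowest value was 263 CPM. Drd1 at 16.6 CPM and Drd2 at 43.9 CPM each rest on 1 UMI in 1 mouse, with the other 3 at 0. Any gene seen in only 1 of the 4 mice has a Dixon ratio of 1, so both were bound to be set apart.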

How the results depend on the processing

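Counts of genes past the 2-fold threshold moved with most settings, while 10 of 24 results stayed within their limits under every alternative. Ratios of observed to expected UMIs, with alternatives added after the data were seen, moved only for the genes at least 1.5 apart between D1 and D2 (log2), and only without genes of the marker lists: to 0.164 of the D1 and 1.04 of the D2 rate for D1 genes, and to 2.57 of the D1 and 0.694 of the D2 rate for D2 genes. Lower and then higher genes against D1 nuclei were 30 and 3 without TMM, 332 and 3 with a pseudocount worth 1 UMI, 7 and 0 with one worth 5, and 493 and 54 in the 1 mouse with 20 nuclei. Higher genes were 0 with at least 50 UMIs in all, with a minimum of 5 nuclei, thinned to 1000 UMIs, and over all 7 mice with any nucleus. Against D2 nuclei they were 23 lower without TMM, 348 and 1 with a pseudocount worth 1 UMI, 6 lower with one worth 5, and 473 and 52 in the 1 mouse with 20 nuclei. Against Eccentric nuclei they were 46 and 20 without TMM, 283 and 37 with a pseudocount worth 1 UMI, 11 and 1 with one worth 5, 26 and 1 with at least 50 UMIs, 44 and 0 thinned, 102 higher in 1 mouse with 20 nuclei and 0 higher over 7 mice; without the replicate block, so between means over mice, 3 were higher. Without each replicate in turn the counts were 223 to 285 lower and 3 to 6 higher against D1, 201 to 315 lower and 2 to 6 higher against D2, and 177 to 220 lower and 14 to 53 higher against Eccentric nuclei. The cause was not tested, except that 2 mice agree in direction for more genes than 3.

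The depth difference kept its direction against D1 (-0.28 to -0.25 without each replicate) and D2 (-0.14 to -0.11), and passed the test over 7 mice (-0.45 and -0.32). Against Eccentric nuclei it was 0.016 with mean UMIs, -0.054 to 0.022 without each replicate, and -0.19 over 7 mice, where it passed. The share of nuclei with neither marker set was 100% with Drd1 and Drd2 alone and 65.5% with whole lists. Without each mouse the Pde10a log2 ratio between genotypes was -1.43 to -1.26. No paired analysis was possible between genotypes because the labels give mice no shared numbers. The planned genotype model across genes and its alternatives were not run, for want of WT nuclei. The limma fit tried over all 7 mice called genes higher in HttQ175/+ mice with TMM scaling and none without it, and was not kept because it called unchanged genes in simulated data.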

Other observations

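Huntingtin itself was seen at the level of the other spiny nuclei. Htt had 29 UMIs in 25 Unknown.MSN nuclei, against 24.9 expected at the D1 rate and 25 at the D2 rate. It averaged 213 ± 73 CPM in Unknown.MSN nuclei of HttQ175/+ mice (SD, n = 4) and 230 ± 228 CPM in those of WT mice (SD, n = 3), and the groups overlapped.

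Nuclear long non-coding RNAs made up much of the RNA counted in these nuclei. Malat1, a nuclear speckle RNA, had 22657 UMIs (ratio 1.02 to the D1 rate) and Meg3, an imprinted RNA, 4145 (ratio 0.918). Kcnk2, a two-pore potassium channel gene, had 93 UMIs against 63 at the D1 rate and 98.5 at the D2 rate. Markers of ventral striatum, olfactory tubercle and islands of Calleja had 19 UMIs (ratio 0.902 to the D1 rate), and neuroblast markers 38 (ratio 0.777). Markers of intercalated, central amygdala and lateral septum neurons had 9 UMIs (ratio 0.163 to the D1 rate), on a list that holds Foxp2. Cortical and other excitatory markers had 113 UMIs (ratio 0.977), of which Camk2a, also expressed by spiny neurons, gave 64.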
